A study of Mus musculus with 12 samples.

Results

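The cytosolic ribosomal proteins are the protein components of the 40S (small) and 60S (large) ribosomal subunits. Probes were taken as members where the gene name in the array files began with Rpl or Rps followed by a digit, or was an Rplp or Rpsa name, with the ribosomal protein S6 kinases (Rps6k) left out. This gave 46 of the 20281 gene probes, for 40 genes. Of these, 29 probes (24 genes) were of the large subunit and 17 probes (16 genes) of the small subunit. Two-colour oligonucleotide arrays compared mouse ES cell lines that differ in Rex1 (Zfp42), a zinc finger gene expressed in undifferentiated ES cells. There were 12 arrays, 3 for each of 4 lines. EB5 is a wild-type line derived from E14tg2a. RKPG9 is Rex1+/-, with one allele carrying a pacEGFP cassette (puromycin resistance fused to EGFP) in place of the start of the coding sequence. HP3 and HP4 are both Rex1-/- lines. The paper obtained such lines from RKPG9 under high-dose puromycin, and further ones with another targeting vector and hygromycin. It does not state which route gave HP3 and HP4. All lines were grown without feeders on gelatin with fetal calf serum and LIF. Each line is a single clone, so a difference between lines is one between clones, and the labels do not say that the 3 samples of a line came from separate cultures. The p-values below therefore measure the spread between these samples, which may be technical.

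Each cytosolic ribosome carries one copy of nearly every ribosomal protein, and the transcripts are among the most abundant in growing cells. Vertebrate ribosomal protein mRNAs typically begin with a C followed by a run of pyrimidines, the 5′ terminal oligopyrimidine (TOP) motif, which ties their translation to mTOR signalling. Ribosomal protein genes have many processed pseudogenes, so a probe can take up signal from near-identical transcripts. Assignments of single probes to genes are uncertain to that extent.

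Promoter windows from RefSeq (GRCm38.p6, 250 bases before to 50 after each annotated start) were held for 30 of the 40 genes, in 38 windows. The stretches below run from 30 bases before the start to the 10 bases that begin with it, and capitals mark the unbroken run of C and T that includes the start base. The first 4 are of the genes with C at the start followed by 4 pyrimidines. The last 4, which lack that feature at their annotated starts, are of genes whose levels differed between the lines. The levels of Rpl28 and Rpl35, among the first 4, differed as well. The listing therefore does not relate the start sequence to a change.
Rpl28 (chr7:4792935-4792974, plus strand): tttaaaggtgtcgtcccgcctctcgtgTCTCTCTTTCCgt
Rpl35 (chr2:39005122-39005161, minus strand): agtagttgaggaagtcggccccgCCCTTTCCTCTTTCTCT
Rpl35a (chr16:33056452-33056491, plus strand): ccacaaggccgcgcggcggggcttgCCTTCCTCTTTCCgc
Rps6 (chr4:86857358-86857397, minus strand): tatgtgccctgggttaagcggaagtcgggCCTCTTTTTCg
Rpl37a (chr1:72711230-72711269, plus strand): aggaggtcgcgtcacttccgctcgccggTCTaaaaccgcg
Rpl5 (chr5:107900498-107900537, plus strand): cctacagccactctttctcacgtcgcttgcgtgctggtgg
Rpl24 (chr16:55966245-55966284, plus strand): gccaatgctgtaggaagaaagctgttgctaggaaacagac
Rpl26 (chr11:68901536-68901575, plus strand): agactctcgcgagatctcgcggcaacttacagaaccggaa

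The feature of C at the annotated start and 4 pyrimidines after it was in 4 of 30 member genes (13.3%) and in 3.01% of all genes with a window. CCGGAAG, searched on both strands over the window, was in 26.3% of the member windows and in 8.86% of all windows. AAGATGGC, searched in the same way, was in 13.2% of the member windows and in 2.75% of all windows. Counted by gene, CCGGAAG was in 33.3% of the members and 9.93% of all genes. AAGATGGC was in 3 member genes (10%) and in 3.19% of all genes, since Rpl35a holds it in overlapping windows. These motifs were chosen after the sequences had been seen, several genes have more than 1 annotated start, and a start that is a few bases off would hide the feature.

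Every member probe was well above background in the ES cell channel on all 12 arrays. RNA of the line was labelled with Cy3 and a reference RNA pooled from mouse cell lines with Cy5 on every array, with no dye swap. A level is thus a log2 ratio of line to reference, and a change is the difference of such ratios between 2 lines. The ES cell label held in the Pou5f1 probe, at log2 ratios of 3.99 to 4.62 where it was measured, whereas the fibroblast gene Vim lay at -5.09 to -3.45. Both Zfp42 probes lay at 5.22 to 6.11 in all 4 lines, the Rex1-/- lines included. Whether those probes lie in the replaced part of the gene is not known here, so they do not check the genotypes. The 3 EB5 arrays were quantified in a separate session with a global background adjustment that was off for the other 9 arrays. For every comparison with EB5, line and session cannot be told apart, while RKPG9, HP3 and HP4 share a session.

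Many members were too bright for the scanner. The reference channel was saturated on all 12 arrays for 22 of the 46 members (47.8%), against 89 of all 20281 probes (0.439%). The ES cell channel was saturated on 1 or more arrays for 6 members (13%), against 30 of all probes (0.148%). By these flags 21 member probes (18 genes) were below the ceiling in both channels, 19 probes had a saturated reference only, and 6 probes were saturated in both channels on some array. For the 25 members with a saturated reference on 1 or more arrays, the ratio is not a measured level against the reference. A change between lines at such a probe then follows the ES cell channel and the normalisation.

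**Figure D1:**
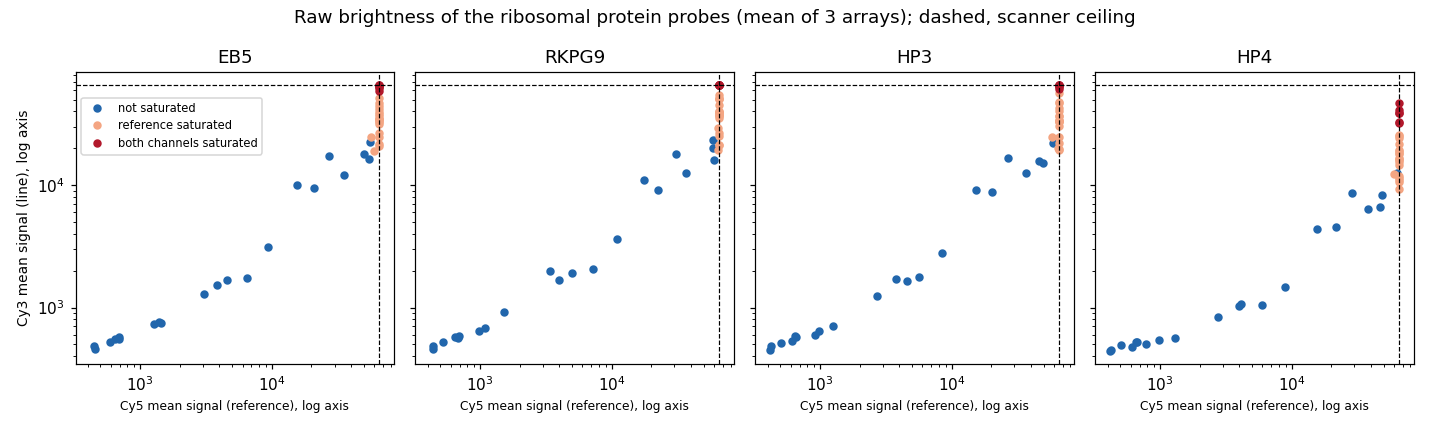
Raw mean signal of each member probe in the ES cell channel (Cy3, vertical) against the reference channel (Cy5, horizontal), both on log axes, as the mean of the 3 arrays of a line, coloured by saturation class, with dashed lines at the scanner ceiling. The reference channel crowds at the ceiling in all 4 panels, and the HP4 panel has no probe at the Cy3 ceiling.

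The 6 doubly saturated probes were those of Rps6, Rps12 (A_65_P05909), Rps20, Rps23, Rpl7a and Rpl8 (A_65_P13605). On an array where several of them were saturated in both channels, they gave practically the same ratio. It was 1.18 on EB5 replicate 1, 1.36 to 1.38 on replicate 2 and 0.77 on replicate 3. On the RKPG9 arrays it lay between 0.93 and 0.99, and on the HP3 arrays it was 1.36, 0.93 and 1.05. No HP4 array had a saturated member in Cy3. Rps23, a protein of the decoding centre, read 42055, 47281 and 51641 raw Cy3 units in HP4 and 65517 on each of the other 9 arrays, which is the ceiling. Its log2 ratio was nevertheless higher in HP4 (1.77, 1.70 and 1.74) than on any other array (0.77 to 1.38). The median SD of the log2 ratio over the 3 arrays of a line was larger for these 6 probes than for the members below the ceiling in EB5 (0.286 against 0.0406) and in HP3 (0.212 against 0.0507). It was smaller in RKPG9 (0.0292 against 0.0425) and HP4 (0.0443 against 0.0707). No lower bound on a fold change is given for them, since which line had the higher normalised Cy3 level depended on the normalisation. For Rps12 (A_65_P05909) one normalised Cy3 level was 16.68 in HP4 and 16.44 in RKPG9. In the ES cell channel normalised alone it was 15.82 in HP4 and 15.95 in RKPG9, which was saturated there on every array.

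HP4 was also the dimmest line. The median raw Cy3 signal over the members was 10109 to 12329 on the HP4 arrays and 18045 to 26430 on the other arrays. The reference median over the members was 62015 to 65517, at or near the ceiling, so it could hardly show a difference. The dimness was not particular to the members. Over all probes the median raw Cy3 was 481 to 487 in HP4 and 520 to 577 elsewhere. The median raw reference signal over all probes also varied. It was 631 to 668 in HP4, 647 to 689 in HP3, 702 to 720 in RKPG9 and 780 to 818 in EB5. The Cy3 signals include the spot background, which at member probes was 387 to 402 in HP4 and 392 to 419 elsewhere. On the HP4 arrays 0 probes of any kind were saturated in Cy3, against 21 to 29 on the others. In RNA from a whole culture, fewer cells of a type and less RNA per cell cannot be told apart, and here neither can they be told apart from less labelled RNA on the array.

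**Figure D2:**
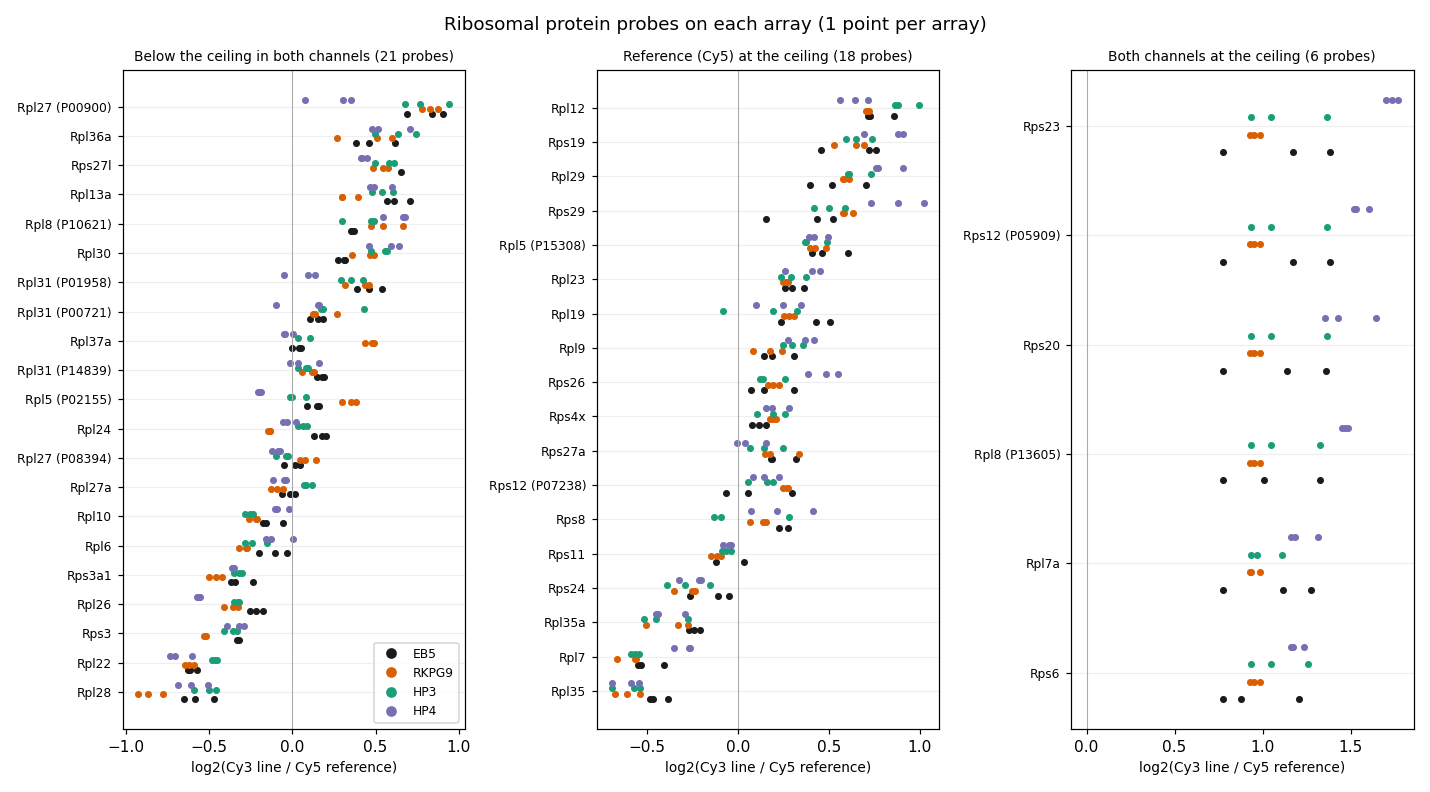
Log2 ratio of line to reference for all but 1 of the 46 member probes on every array (1 point per array, coloured by line), in 3 panels by saturation class and ordered by mean ratio. Points of a line lie close together for most probes below the ceiling, and the 6 doubly saturated probes spread widely within EB5 and HP3.

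Across the 6 pairs of lines no member was called changed over 2-fold, and 30 of the 46 probes (65.2%) passed the test in at least 1 comparison, against 67.4% of all probes. Calls are at an adjusted p under 0.05 from limma with Benjamini-Hochberg adjustment over all probes. The share of all probes past 2-fold at that threshold was 0.217% for HP3 against EB5, 0.291% for HP4 against EB5, 0.524% for RKPG9 against EB5, 0.281% for HP3 against RKPG9, 0.38% for HP4 against RKPG9 and 0.0247% for HP4 against HP3. The comparisons share lines, so they are not independent of one another.

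The Rex1-/- lines were first compared with wild-type EB5, where genotype, clone and session cannot be told apart. In HP3, 3 members were higher and 5 lower than in EB5, while 11.4% of all probes were higher and 19.1% lower. The median change of the members was -0.01 on the log2 scale, against -0.02 for all probes. In HP4, 10 members were higher and 7 lower than in EB5, with 18.4% of all probes higher and 26.4% lower, and the median of -0.02 equalled that of all probes. Between RKPG9 and EB5, 3 members were higher and 9 lower, with 12.5% of all probes higher and 21.6% lower. The member median there was -0.07.

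Within the shared session, HP3 had 9 members higher and 3 lower than RKPG9, with 12.6% of all probes higher and 10.1% lower, and a member median of 0.04. HP4 had 16 higher and 6 lower than RKPG9, with 20.9% and 19.1% of all probes, and a member median of 0.11 against 0.01. HP4 had 9 higher and 8 lower than HP3, with 13.7% and 14.7% of all probes, and a member median of 0.02. The 2 Rex1-/- lines thus gave 17 member calls between themselves, and 17 (HP4) and 8 (HP3) against EB5. Among the calls, only Rps20 in HP4 against EB5 had arrays of both lines that overlapped. The share without overlap among all called probes is not given here, so this is not a trait of the members.

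The direction of the family in HP4 depended on the normalisation. With each array's ratios centred on the median in place of the intensity-dependent loess fit, 2 members were higher and 40 lower in HP4 than in EB5, with a member median of -0.73. Of all probes, 36.5% were then higher and 43% lower. Against RKPG9 the members split into 2 and 40 (median -0.64), with 38.8% and 37.9% of all probes. Against HP3 they split into 1 and 39 (median -0.52), with 34.1% and 36.4% of all probes. The 86 other probes with a saturated reference moved alike under that centring, with medians of -0.78, -0.77 and -0.51, while the median over all probes stayed at -0.03, 0.02 and 0.01. The fall was not confined to saturated probes. The members below the ceiling had medians of -0.64, -0.57 and -0.49. Mitochondrial ribosomal proteins had medians of -0.63, -0.50 and -0.39, and initiation factors -0.61, -0.45 and -0.39. With median centring 7 members were called past 2-fold in HP4 against EB5 and 2 in HP4 against RKPG9, of 394 and 277 among all probes. Processed signals from the image software gave an even split of 10 and 10 in HP4 against EB5, with 22.5% of all probes higher and 33.7% lower. They gave more falls than rises against RKPG9 (5 higher, 12 lower; 20.1% and 26.7% of all probes) and HP3 (5 higher, 11 lower; 12.7% and 18.8% of all probes). With saturated spots left out, HP4 against RKPG9 had 6 higher and 6 lower of 22 member probes, with 20.9% and 19.2% of all probes. In HP3 against EB5, median centring gave 1 higher and 19 lower (9.69% and 27% of all probes), and processed signals gave 7 higher and 3 lower (15% and 20.9%). Median centring kept the call and its direction for 5 of the 8 member calls in HP3 against EB5, 7 of 17 in HP4 against EB5, 6 of 12 in RKPG9 against EB5, 2 of 12 in HP3 against RKPG9, 5 of 22 in HP4 against RKPG9 and 8 of 17 in HP4 against HP3. No common rise or fall of the ribosomal proteins is therefore stated for any line.

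**Figure D3:**
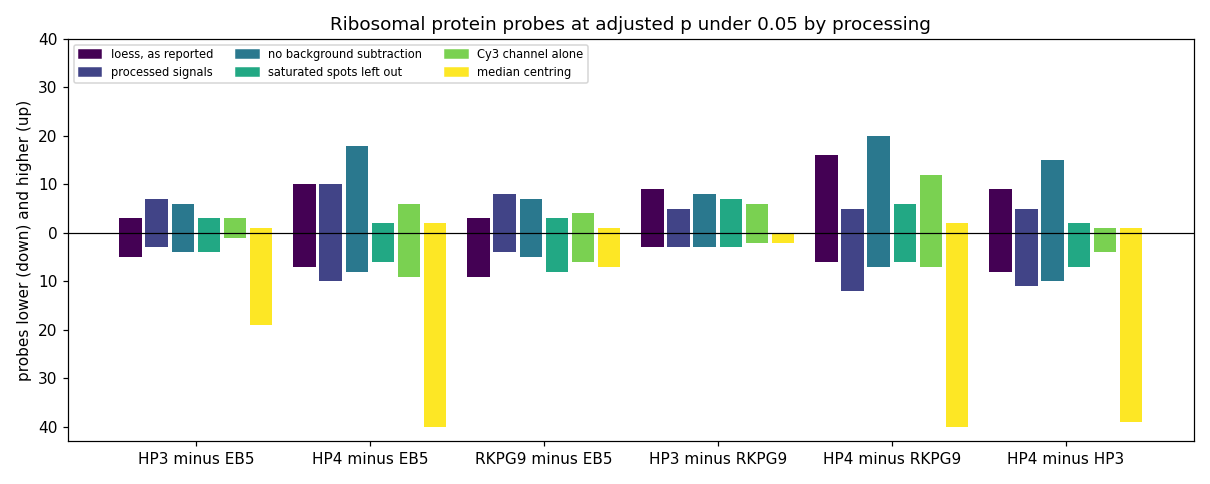
Number of member probes called higher (up) and lower (down) at an adjusted p under 0.05 in each comparison, with a bar for each of 6 ways of processing the same arrays. Loess gave 16 higher and 6 lower for HP4 against RKPG9, whereas median centring gave 2 and 40.

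The saturation classes also carried different shares of the calls in HP4. Against RKPG9, the members below the ceiling gave 6 higher and 6 lower of 21, those with a saturated reference 6 higher of 19, and the doubly saturated ones 4 higher of 6. The small subunit gave 7 of 17 probes higher, 3 of them doubly saturated (Rps12, Rps20 and Rps23). The large subunit gave 9 of 29 higher and 6 lower. Of all probes, 20.9% were higher and 19.1% lower. Which of subunit, brightness and saturation goes with the direction was not tested.

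A second reading used the ES cell channel alone, normalised without the reference, since the ratio also carries the reference's own variation. Called in both readings and in 1 direction were 2 of the 8 member calls in HP3 against EB5, 6 of 17 in HP4 against EB5 and 7 of 12 in RKPG9 against EB5. For HP3 against RKPG9 it was 7 of 12, for HP4 against RKPG9 13 of 22 and for HP4 against HP3 3 of 17. In Cy3 alone the share of all probes called was, in the same order, 26.4%, 44.8%, 25.4%, 10.3%, 26.5% and 9.81%.

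**Figure D4:**
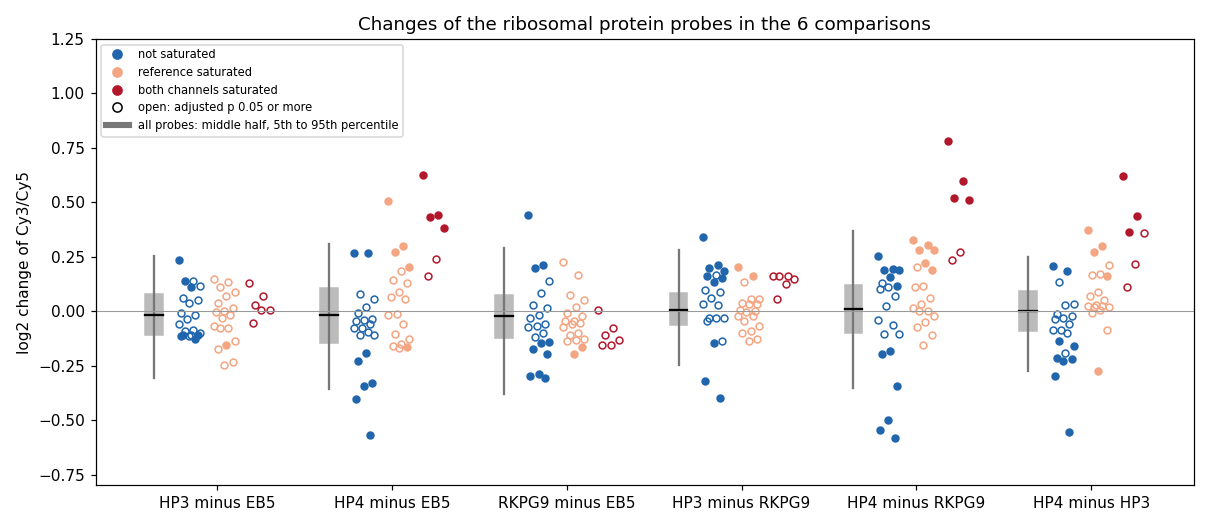
Log2 change of the ratio for each member probe in the 6 comparisons (filled where the adjusted p was under 0.05, coloured by saturation class), beside the middle 50% and the 5th to 95th percentile of all probes in grey. The doubly saturated probes lie above 0 in all 3 comparisons with HP4, which turned to below 0 with median centring, and no point passes 1 or -1.

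The clearest single-gene differences were between RKPG9 and the other lines, at members below the ceiling. Rpl37a, a zinc finger protein of the large subunit, had log2 ratios of 0.44, 0.48 and 0.49 in RKPG9. It read -0.01, 0.05 and 0.04 in EB5, 0.03 and 0.10 in HP3, where replicate 2 was dropped as an outlier spot, and 0.00, -0.05 and -0.05 in HP4. All RKPG9 arrays lay above all others. The change was 0.44 ± 0.0348 (SE; limma adjusted p = 4.02e-06) in RKPG9 against EB5, -0.40 (adjusted p = 2.58e-05) in HP3 against RKPG9 and -0.50 (adjusted p = 1.52e-06) in HP4 against RKPG9. In Cy3 alone these changes were 0.68, -0.65 and -0.70, and with median centring 0.44, -0.57 and -1.05. Raw Cy3 signals of Rpl37a were 1894 to 2054 in RKPG9 and 722 to 1540 elsewhere, well below the ceiling.

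Rpl5, which binds the 5S rRNA and with it can bind the p53 regulator Mdm2, had 2 probes. The dimmer one (A_65_P02155, raw Cy3 534 to 942) had log2 ratios of 0.38, 0.30 and 0.35 in RKPG9, 0.09, 0.15 and 0.16 in EB5, 0.00, -0.01 and 0.08 in HP3 and -0.21, -0.19 and -0.20 in HP4. The lines did not overlap at this probe. It was 0.21 ± 0.0373 (SE) higher in RKPG9 than in EB5 (limma adjusted p = 0.000873), 0.32 ± 0.0373 higher in RKPG9 than in HP3 (adjusted p = 5.64e-05) and 0.54 ± 0.0373 higher than in HP4 (adjusted p = 6.14e-07). With median centring the first was 0.14 (adjusted p = 0.0752). The brighter probe (A_65_P15308, raw Cy3 16181 to 49993), with a saturated reference, lay between 0.37 and 0.60 on all arrays and was not called in any comparison. Rpl5 therefore has no single direction here. At the dimmer probe the fall in HP4 against EB5 (-0.33, adjusted p = 3.97e-05) was -0.09 in Cy3 alone (adjusted p = 0.389). Its call in HP3 against EB5 (-0.11, adjusted p = 0.045) was lost when any of EB5 replicates 2 and 3 and HP3 replicates 1 and 2 was left out, at changes of -0.10 to -0.09, and it turned to 0.06 in Cy3 alone.

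Rpl24, Rpl28 and Rpl13a were lower in RKPG9 than in EB5. They were also lower than in HP3 and HP4, but with median centring the calls against HP3 were lost (0.05, 0.16 and 0.04, adjusted p = 0.713, 0.165 and 0.743) and the changes in HP4 against RKPG9 turned to falls (-0.62, -0.57 and -0.60). Rpl24, at the bridge between the subunits, had log2 ratios of -0.14, -0.15 and -0.13 in RKPG9 against 0.18, 0.20 and 0.13 in EB5. It was 0.09, 0.04 and 0.06 in HP3 and 0.02, -0.03 and -0.06 in HP4, so RKPG9 lay below all other arrays. The RKPG9 against EB5 change was -0.31 ± 0.0334 (SE; limma adjusted p = 2.37e-05). In Cy3 alone it was -0.22 (adjusted p = 0.0341). HP3 and HP4 were also lower than EB5, by -0.11 (adjusted p = 0.0292) and -0.19 (adjusted p = 0.000754), or -0.31 and -0.98 with median centring.

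Rpl28, a large subunit protein whose start carries a C and T run, read -0.78, -0.93 and -0.87 in RKPG9, -0.58, -0.47 and -0.65 in EB5, -0.46, -0.59 and -0.50 in HP3 and -0.51, -0.69 and -0.61 in HP4. RKPG9 lay below the other 9 arrays. The change was -0.29 in RKPG9 against EB5 (limma adjusted p = 0.0033), 0.34 in HP3 against RKPG9 (adjusted p = 0.00162) and 0.25 in HP4 against RKPG9 (adjusted p = 0.00647). The last was -0.05 in Cy3 alone (adjusted p = 0.692).

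Rpl13a, a part of the GAIT complex that silences translation of some mRNAs, read 0.40, 0.30 and 0.30 in RKPG9, 0.61, 0.71 and 0.57 in EB5, 0.61, 0.48 and 0.54 in HP3 and 0.60, 0.47 and 0.49 in HP4. It fell by 0.30 in RKPG9 against EB5 (limma adjusted p = 0.000818) and was 0.21 higher in HP3 and 0.19 higher in HP4 than in RKPG9 (adjusted p = 0.0112 and 0.0128). Without HP3 replicate 1, the HP3 value was 0.18 (adjusted p = 0.0513), and it was 0.04 with median centring.

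Rps3, whose protein lines the mRNA entry channel, was -0.20 in RKPG9 against EB5 (adjusted p = 0.00313) but -0.04 in Cy3 alone, with EB5 replicate 2 dropped as an outlier spot, and the call was lost with median centring (-0.29, adjusted p = 0.0568). Rps3 in HP4 against RKPG9 was 0.19 (adjusted p = 0.00178) but -0.06 in Cy3 alone and -0.64 with median centring.

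**Figure D5:**
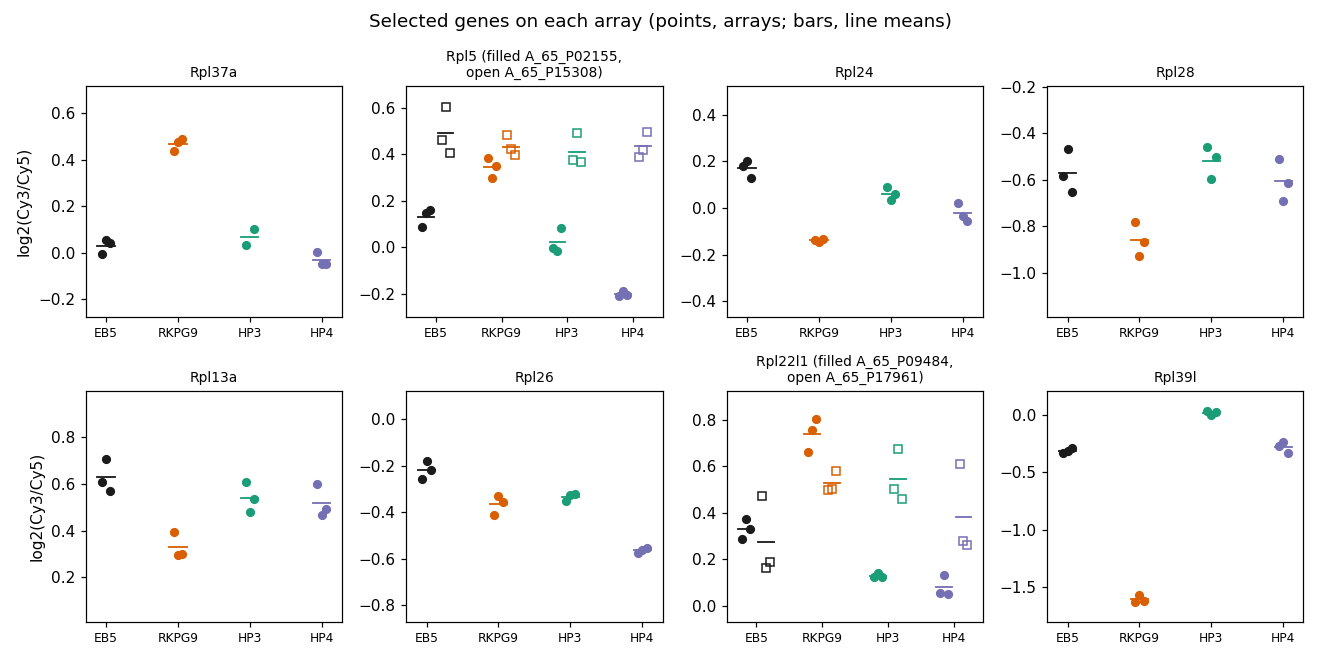
Log2 ratio of line to reference on each array (points) with line means (bars) for 6 member genes, Rpl37a, Rpl5, Rpl24, Rpl28, Rpl13a and Rpl26, and for the paralogs Rpl22l1 and Rpl39l, with a second marker for the second probe of Rpl5 and Rpl22l1. RKPG9 lies apart from the other lines in Rpl37a (0.44 to 0.49) and, in the opposite direction, in Rpl39l (-1.63 to -1.57).

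HP4 had its own set of falls below the ceiling. Rpl26, a large subunit protein near the exit tunnel, read -0.57, -0.56 and -0.55 in HP4. The values were -0.35, -0.32 and -0.32 in HP3, -0.26, -0.18 and -0.22 in EB5 and -0.41, -0.33 and -0.36 in RKPG9, so HP4 lay below all other arrays. The change was -0.34 ± 0.0332 (SE; limma adjusted p = 1.32e-05) against EB5, -0.20 (adjusted p = 0.000594) against RKPG9 and -0.23 (adjusted p = 0.000562) against HP3. In Cy3 alone these were -0.31, -0.42 and -0.19, the last with an adjusted p of 0.149, and with median centring -1.03, -0.84 and -0.75.

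Rpl27 had the largest member fall by size in HP4, at its dim probe. That probe (A_65_P00900) read 0.07, 0.35 and 0.30 in HP4 and 0.68 to 0.94 on the other arrays. The change was -0.57 against EB5, -0.58 against RKPG9 and -0.55 against HP3 (limma adjusted p = 0.000269, 0.000197 and 0.000781). All 3 calls were lost with median centring, at -0.12, -0.07 and -0.05 (adjusted p = 0.112, 0.343 and 0.542). In Cy3 alone the change was -0.13, -0.27 and -0.34, and the raw Cy3 signal was 444 to 502. The second Rpl27 probe (A_65_P08394) read -0.12 to 0.14 on all arrays and was -0.18 in HP4 against RKPG9 (adjusted p = 0.00283).

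Of the 3 probes named Rpl31, A_65_P01958 was -0.40 in HP4 against EB5 (limma adjusted p = 0.000258) and -0.34 against RKPG9 (adjusted p = 0.000724). In Cy3 alone the first was -0.04 (adjusted p = 0.697). The other probes were not called in any comparison, and the files' descriptions give all 3 as Skd3, an unrelated gene. Which gene these probes measure is uncertain.

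Of the 10 members that rose in HP4 against EB5, 4 had a saturated reference only and 4 were doubly saturated. Rps29, a small zinc-binding protein of the 40S subunit, read 0.88, 1.02 and 0.73 in HP4, against 0.43, 0.52 and 0.16 in EB5. It was 0.51 higher than in EB5 (limma adjusted p = 0.001; 0.42 in Cy3 alone), 0.28 higher than in RKPG9 (adjusted p = 0.0293) and 0.37 higher than in HP3 (adjusted p = 0.0111). With median centring these changes were -0.39, -0.59 and -0.30. Rps26, at the mRNA exit channel, read 0.55, 0.39 and 0.48 in HP4 against 0.07 to 0.31 elsewhere, and was 0.30 higher than in EB5 (adjusted p = 0.00266) but -0.60 with median centring. Rpl7, a large subunit protein, read -0.26, -0.35 and -0.27 in HP4 against -0.66 to -0.41 elsewhere and was 0.30 higher than in RKPG9 (adjusted p = 0.000273) but -0.52 with median centring. Rps29, Rps26 and Rpl7 all had a saturated reference.

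Rpl30 and Rpl8 (A_65_P10621) were higher than in EB5 below the ceiling, at dim probes. Raw Cy3 signals of Rpl30 were 507 to 598. At this Rpl8 probe they were 489 to 492 in HP4 and 514 to 528 in EB5, over backgrounds of 395 to 399 and 400 to 403. Rpl30, which also binds its own pre-mRNA in yeast, read 0.31, 0.27 and 0.32 in EB5, 0.47, 0.57 and 0.55 in HP3 and 0.46, 0.59 and 0.64 in HP4. It rose by 0.23 in HP3 (limma adjusted p = 0.00511) and 0.27 in HP4 (adjusted p = 0.00142), with 0.45 and 0.60 in Cy3 alone. Both calls were lost with median centring (0.04 and 0.00, adjusted p = 0.535 and 0.946). The file describes the Rpl30 probe as a pseudogene of Rpl30. The Rpl8 probe read 0.37, 0.36 and 0.35 in EB5 and 0.67, 0.67 and 0.54 in HP4, 0.27 higher (adjusted p = 0.00431). Its rise of 0.20 in RKPG9 against EB5 (adjusted p = 0.0254) was lost without any EB5 replicate or without RKPG9 replicate 1 or 2, at 0.15 to 0.21, and with median centring (0.21, adjusted p = 0.0603).

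Smaller changes passed the test with less support. Rpl22, which binds the Epstein-Barr virus EBER1 RNA, was 0.14 higher in HP3 than in EB5 (limma adjusted p = 0.0191), a call lost without EB5 replicate 1 or 3 or HP3 replicate 1 or 3 (0.13 in each case), and -0.01 with median centring. Rpl22 was 0.15 higher in HP3 than in RKPG9 (adjusted p = 0.0129), but -0.07 in Cy3 alone and 0.03 with median centring (adjusted p = 0.799). Rpl27a was 0.11 higher in HP3 than in EB5 (adjusted p = 0.0324), lost without EB5 replicate 1 or 2 or any HP3 replicate (0.09 to 0.12), while Cy3 alone gave 0.33 and median centring -0.01. Rpl35 was -0.16 against EB5 in each of HP3, HP4 and RKPG9 (adjusted p = 0.0448, 0.027 and 0.0338). Its HP3 call was lost without any EB5 replicate or without HP3 replicate 1 or 3 (-0.18 to -0.11), and its RKPG9 call was lost with median centring (-0.22, adjusted p = 0.194).

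The X-linked members and the disease gene Rps19 gave few calls. Rps4x, Rps19 (mutated in Diamond-Blackfan anaemia), the ubiquitin fusion gene Rps27a and Rpl36a were not called in any of the 6 comparisons. For Rps4x the 95% interval of the change lay between -0.10 and 0.19 over the 6. For Rps19 it reached from -0.20 to 0.38, for Rps27a from -0.31 to 0.14 and for Rpl36a from -0.27 to 0.38. Rps4x, Rps19 and Rps27a had a saturated reference, and these intervals hold for the loess ratios only. With median centring Rps4x was -0.81 and Rps19 -0.73 in HP4 against EB5 (limma adjusted p = 5.69e-05 and 0.000293), outside them. Without HP4 replicate 1, Rps19 passed the test in HP4 against EB5 (0.25) and RKPG9 (0.27). Rps27a, at -0.17 in HP4 against EB5 (adjusted p = 0.0599), passed it as lower there under 8 of 17 alternatives, at up to -1.08 with median centring. Against RKPG9, where it was -0.16 (adjusted p = 0.0812), it passed under 6 of 17. Both counts include the fit without HP4 replicate 2 (-0.21 and -0.20). The third X-linked member, Rpl10, was 0.16 higher in HP4 than in RKPG9 (limma adjusted p = 0.00823) and 0.19 higher than in HP3 (adjusted p = 0.00539), but -0.07 and -0.08 in Cy3 alone and -0.43 and -0.29 with median centring. Rpl10 in HP3 against EB5 was -0.13 (adjusted p = 0.0293) and 0.10 in Cy3 alone, and the call was lost without EB5 replicate 2 or HP3 replicate 1 or 2 (-0.13 to -0.09). The rule found no probe of the stalk proteins Rplp0, Rplp1 and Rplp2 or of Rpsa, and the Rpl11 probe was listed under a clone name, which left it out of the members.

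The rule also left out 18 probes that the files list under clone names and that match ribosomal protein genes through older symbols. Of these, 12 probes were for 10 genes of the cytosolic family itself, such as Rpl11 and Rpl39, so the members are not the whole family on the array. The other 6 were for 4 paralogs, and they included the largest change by size among the members and those 18 probes. Rpl39l, a paralog of Rpl39 known from male germ cells, read -1.63, -1.57 and -1.62 in RKPG9. It read -0.34, -0.31 and -0.29 in EB5, 0.03, -0.01 and 0.02 in HP3 and -0.27, -0.23 and -0.33 in HP4, so RKPG9 lay far below all other arrays. The change of Rpl39l was -1.29 in RKPG9 against EB5 (limma adjusted p = 5.03e-10), 1.62 in HP3 against RKPG9 (adjusted p = 2.39e-10) and 1.33 in HP4 against RKPG9 (adjusted p = 1.09e-09). In Cy3 alone Rpl39l gave -1.11, 1.61 and 1.42. HP4 did not pass the test against EB5 for Rpl39l (0.03, adjusted p = 0.451).

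One probe of Rpl22l1 (A_65_P09484), the paralog of Rpl22, read 0.66, 0.76 and 0.80 in RKPG9, 0.29, 0.37 and 0.33 in EB5, 0.12, 0.14 and 0.12 in HP3 and 0.05, 0.13 and 0.05 in HP4. It was 0.41 higher in RKPG9 than in EB5 (limma adjusted p = 1.49e-05), and lower than in RKPG9 by -0.61 in HP3 and -0.66 in HP4. The second Rpl22l1 probe (A_65_P17961) was not called in any comparison. The paralog of Rps27, Rps27l, is a member by its name and read 0.41, 0.42 and 0.45 in HP4, against 0.61, 0.50 and 0.58 in HP3. It was -0.14 in HP4 against HP3 (adjusted p = 0.0326), lost without HP3 replicate 1 or 3 or HP4 replicate 1 or 2 (-0.13 to -0.11). Only EB5 replicate 1 measured Rps27l in EB5, since the other spots were outliers. Among all 18 probes under clone names, 1 was higher and 8 were lower in HP4 than in EB5, where the members had 10 higher and 7 lower. The 12 probes of family genes gave 1 higher and 5 lower of these. Of all probes, 18.4% were higher and 26.4% lower in HP4 than in EB5. With median centring the 18 split there into 1 and 17, with 36.5% and 43% of all probes. In the other comparisons the 18 probes split into 2 higher and 2 lower (HP3 against EB5), 3 and 4 (RKPG9 against EB5), 3 and 1 (HP3 against RKPG9), 4 and 4 (HP4 against RKPG9) and 1 and 3 (HP4 against HP3). The shares of all probes were, in that order, 11.4% and 19.1%, 12.5% and 21.6%, 12.6% and 10.1%, 20.9% and 19.1%, and 13.7% and 14.7%.

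Other parts of the translation machinery were listed for comparison. Of 8 elongation factor probes, 2 were higher and 1 lower in RKPG9 than in EB5, with 12.5% of all probes higher and 21.6% lower. Eef2k, the kinase that inhibits elongation factor 2, was 0.81 higher in RKPG9 than in EB5 (limma adjusted p = 2.8e-08) and 0.95 in Cy3 alone. Eef2k was -0.68 in HP3 and -0.60 in HP4 against RKPG9. Eef1b2, an exchange factor for Eef1a, was 0.60 higher in RKPG9 than in EB5 (adjusted p = 2.91e-05). Of 2 probes for Rack1, a scaffold protein of the 40S subunit, the one below the ceiling (A_65_P08399) was 0.20 higher in RKPG9 than in EB5 (limma adjusted p = 0.0206), 0.06 in Cy3 alone, a call lost without EB5 replicate 2 or RKPG9 replicate 1 or 3 (0.15 to 0.18).

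Of the initiation factor probes, 7 of 29 were higher and 11 lower in HP4 than in EB5, with 18.4% and 26.4% of all probes. With median centring 0 were higher and 26 lower, with 36.5% and 43% of all probes. Eif4ebp1, the mTOR-regulated repressor of cap-dependent initiation, was -0.65 in HP4 against EB5 (limma adjusted p = 1.92e-06) and -0.70 against RKPG9 (adjusted p = 6.1e-07). The poly(A)-binding protein gene Pabpc1, a TOP mRNA, was 0.70 higher in HP4 than in EB5 (adjusted p = 0.000125), 0.66 in Cy3 alone, but -0.16 with median centring. Of 48 mitochondrial ribosomal protein probes measured in EB5, 1 was higher and 23 lower in HP3, where 11.4% of all probes were higher and 19.1% lower. In HP4, 5 were higher and 26 lower, with 18.4% and 26.4% of all probes. In HP4 against RKPG9, 15 of 52 were higher and 14 lower, with 20.9% and 19.1% of all probes. With median centring these splits became 0 and 32, 2 and 44, and 1 and 49, in the same order. The shares of all probes were then 9.69% and 27%, 36.5% and 43%, and 38.8% and 37.9%. Mrpl23, of the large mitochondrial subunit, was -0.41 in HP3, -0.67 in HP4 and -0.43 in RKPG9 against EB5.

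Of 70 ribosome assembly probes measured in EB5, 13 were higher and 27 lower in RKPG9 than in EB5, with 12.5% and 21.6% of all probes. Of 71 in all, 18 were higher and 3 lower in HP3 than in RKPG9, with 12.6% and 10.1% of all probes. With median centring these splits became 4 and 18, and 3 and 3. The shares of all probes were then 9.26% and 20.9%, and 5.87% and 9.25%. Nip7, needed for 60S assembly, was 0.49 higher in RKPG9 than in EB5 (limma adjusted p = 4e-07), -0.69 in HP3 against RKPG9 and -0.46 in HP4 against RKPG9. Of 8 S6 kinase probes, 5 were higher and 1 lower in HP3 than in EB5, with 11.4% and 19.1% of all probes. With median centring 0 were higher and 2 lower, with 9.69% and 27% of all probes. Rps6ka1, at the probe A_65_P12027, was 0.40 higher in HP4 than in EB5 (adjusted p = 1.4e-05), while its second probe was 0.09 (adjusted p = 0.0872). Markers of other cells moved as well. All 3 fibroblast marker probes (Vim and Col1a2) were lower in RKPG9 than in EB5, 2 of 4 trophoblast and 1 of 7 primitive endoderm marker probes were lower, and 2 of 8 ES cell marker probes were higher. Of all probes, 12.5% were higher and 21.6% lower there. HP3 against EB5 gave the same counts of these markers, with 11.4% of all probes higher and 19.1% lower. In HP4 against EB5, 1 of 3 fibroblast, 2 of 4 trophoblast and 1 of 7 primitive endoderm marker probes were lower. There 2 primitive endoderm probes were higher, and the ES cell markers had 1 higher and 2 lower. Of all probes, 18.4% were higher and 26.4% lower in HP4. These shifts against EB5 were thus not particular to RKPG9. In HP4 against RKPG9, 5 of 8 ES cell marker probes were lower and 1 higher, with 19.1% of all probes lower and 20.9% higher. The part of these markers in the ribosomal protein values was not tested.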

How the data were processed

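RNA of 12 ES cell samples (3 each of EB5, RKPG9, HP3 and HP4) was hybridised to two-colour 22K Agilent arrays, with the sample in Cy3 and a mouse reference in Cy5. The deposited intensity values, the mean and background signals of each spot, came from the authors' scans in Agilent Feature Extraction 7.5.1, per the file headers. The deposited value table gives log10 values made by the authors. Its column medians were 2.87 to 2.88, and its differences between arrays correlated at 0.61 or more with the spots' turned log ratios. The exact scaling of that table is not given in the sources used here, and it served as an alternative only. The deposited processed signals were a further alternative. From the deposited intensities, log2 ratios were computed with limma 3.58.1 in R 4.3.3, using normexp with an offset of 50 and loess within each array with control and outlier spots at weight 0. Outlier spots were dropped and spots of a probe averaged. Saturated spots were kept. All 12 arrays were fitted in 1 linear model with empirical Bayes variances (8 residual and 3.42 prior degrees of freedom) and Benjamini-Hochberg adjustment over all 20281 probes. Calls are at adjusted p under 0.05. The ES cell channel was also fitted alone, after normexp and quantile normalisation between arrays. A comparison was left out for a probe with no value left in 1 of its lines. The scripts were tested on simulated data. Intensities do not give a count, and the precision is limited by 3 arrays per line.

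Named are, in each comparison, up to 4 members with the largest rise and 4 with the largest fall past the threshold whose arrays do not overlap, the X-linked and 5S-binding members, Rps19, Rps27a, the paralogs, and leading genes of the other lists (initiation and elongation factors, S6 kinases, mitochondrial ribosomal proteins, ribosome assembly, Rack1, and markers of ES cells, fibroblasts, trophoblast and primitive endoderm). The members, the lists and the rule were chosen with earlier results of these data known. Replicate numbers were checked for pairing: same-numbered samples correlated in their deviations at -0.18 to 0.20, which does not pair them. Alternatives were median centring, other background corrections, the deposited tables, other handling of saturated, outlier and dim spots, 2 lines alone, a replicate block and leaving out each array. Some results by gene are not reported here.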

Additional observations from a re-analysis of the deposited data

Results flagged for a closer look

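Between both Rex1-/- lines 17 member probes passed the test, with 28.4% of all probes. Described here are 3 of those members at which the change against EB5 differed, and others, such as Rpl26, are given above. The dim Rpl27 probe (A_65_P00900) was -0.02 in HP3 and -0.57 in HP4 against EB5, and the HP4 minus HP3 difference was -0.55 (limma adjusted p = 0.000781), or -0.34 in Cy3 alone. With median centring it was -0.05 (adjusted p = 0.542), so the call was lost. Rpl12, a protein of the stalk base with a saturated reference, was 0.15 in HP3 and -0.13 in HP4 against EB5, with a difference of -0.27 (adjusted p = 0.0029), or -0.36 in Cy3 alone and -0.97 with median centring. Rpl8 (A_65_P10621) was 0.06 in HP3 and 0.27 in HP4, with a difference of 0.21 (adjusted p = 0.0268), or 0.32 in Cy3 alone and 0.31 with median centring. That probe was dim, at raw Cy3 signals of 488.9 to 491.9 in HP4 and 503.2 to 520.5 in HP3. HP3 and HP4 have the same labelled genotype and were each 1 clone, so clone and genotype were not separated by this difference.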

How the results depend on the processing

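Of 2688 recomputed values of the 152 named changes, 2447 kept direction and side of the threshold, 147 lost the call in 1 direction, 40 gained it and 54 reversed. The number of members called went from 8 to 20 (median centring), 4 (Cy3 alone) and 3 (fit of 2 lines only) in HP3 against EB5. It went from 17 to 26 (no background subtraction), 42 (median centring) and 8 (saturated spots left out) in HP4 against EB5, from 12 to 2 (median centring) in HP3 against RKPG9, from 22 to 42 (median centring) and 12 (saturated spots left out) in HP4 against RKPG9, and from 17 to 40 (median centring), 5 (Cy3 alone) and 9 (saturated spots left out) in HP4 against HP3. The share of all probes called moved as well with median centring, from 30.5% to 36.7%, 44.8% to 79.5%, 22.7% to 15.1%, 40% to 76.7% and 28.4% to 70.5% in the same order of comparisons. It was 37.4% without background subtraction in HP4 against EB5, 26.4% (Cy3 alone) and 27.7% (fit of 2 lines only) in HP3 against EB5, and 9.81% (Cy3 alone) in HP4 against HP3. With saturated spots left out it was 44.8%, 40% and 28.4% in HP4 against EB5, RKPG9 and HP3. Leaving out saturated spots also leaves fewer members to test, 22 to 23, and the cause of the other shifts was not tested. Leaving out 1 array gave 2 to 7 calls in HP3 against EB5 (5 without EB5 replicate 1 or 2, 4 without EB5 replicate 3, 2 without HP3 replicate 1 and 4 without HP3 replicate 3), 15 to 22 in HP4 against EB5, 9 to 15 in RKPG9 against EB5, 8 to 11 in HP3 against RKPG9, 19 to 22 in HP4 against RKPG9 and 12 to 17 in HP4 against HP3. Of the named changes, 17 lost their call and 6 gained one without some array. Rps27l has no value against EB5 without EB5 replicate 1, since its other EB5 spots were outliers. Same-numbered arrays did not deviate together, and a fit with the replicate number as a block gave 6, 20, 13, 12, 24 and 17 calls in the order HP3, HP4 and RKPG9 against EB5, HP3 and HP4 against RKPG9 and HP4 against HP3. With median centring the median over all probes lay between -0.05 and 0.02 in the 6 comparisons, and the following reversed. In HP4 against EB5 it gave Rps23 -0.29, Rps29 -0.39, Rps12 -0.48, Rpl8 (A_65_P13605) -0.49, Rpl10 -0.55, Rps19 -0.73, Rps4x -0.81, Pabpc1 -0.16, Eef2k -0.24 and Rack1 (A_65_P15156) -0.53. In HP4 against RKPG9 it gave Rps23 -0.0874, Rps12 -0.28, Rps20 -0.36, Rpl8 -0.36, Rpl10 -0.43, Rpl5 (A_65_P15308) -0.87, Rps19 -0.67, Rps4x -0.85, Pabpc1 -0.19, Utp14a -0.10 and Rack1 -0.50. In HP4 against HP3 it gave Rps23 -0.0614, Rps12 -0.25, Rpl8 -0.32, Rpl10 -0.29, Rps29 -0.30, Rpl5 (A_65_P15308) -0.66, Rps19 -0.52, Rps4x -0.66, Rack1 -0.42, Nip7 -0.25 and Utp14a -0.0288. In HP3 against EB5 it gave Rpl22 -0.0063, Rpl27a -0.0079 and Eef2k -0.0023. Cy3 alone reversed Rpl5 (A_65_P02155) to 0.0603, Rpl10 to 0.10, Rpl22l1 (A_65_P09484) to 0.0774, Rpl7l1 (A_65_P12537) to 0.072 and Nip7 to 0.13 in HP3 against EB5, Rpl22l1 to 0.10 and Rpl7l1 (A_65_P12537) to 0.15 in HP4 against EB5, Utp14a to -0.0092 in RKPG9 against EB5, and Rpl22 to -0.0742 in HP3 against RKPG9. It reversed Rps12 to -0.13, Rps20 to -0.0029, Rpl10 to -0.0692, and Rpl7l1 to 0.0346 (A_65_P08053) and 0.0166 (A_65_P12537) in HP4 against RKPG9, and Rps12 to -0.0576, Rpl10 to -0.0792 and Rpl7l1 (A_65_P08053) to 0.0165 in HP4 against HP3. Rpl5 (A_65_P15308) in HP4 against RKPG9 was -0.23 with processed signals and -0.23 in the deposited table.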
